A study of Mus musculus with 6 samples.

Results

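Receptors for extracellular nucleotides were measured in red pulp macrophages, the spleen-resident cells that engulf old erythrocytes and recover iron from them. The group comprised 9 genes, P2rx1, P2rx4, P2rx5, P2rx7, P2ry6, P2ry10, P2ry12, P2ry13 and P2ry14, of the 20018 genes named on the array. They were found through the RefSeq accession of each probe, and every probe was kept, which gave 11 of the 55681 non-control probes. P2rx7 had 3 probes, P2ry6 had 1 probe printed as 10 spots on each array, and every other gene had 1 probe with 1 spot. The genes were chosen by their family and with their levels in Bach2 knockout against wild type already known, the same values that are reported here. Their differences between the genotypes are therefore a description and carry no test.

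Flow cytometry was used to sort the cells from spleens of C57BL/6 mice aged 8 to 9 weeks. Bach2 encodes a transcriptional repressor that binds Maf recognition elements, and 3 mice lacked it while 3 were wild type. The labels do not say which part of Bach2 was removed or in which cells, and they do not give the markers of the sort gate. All mice were male except wild-type replicate 3, which was female, and replicate 3 of both genotypes carried the same animal tag, P6. Each mouse gave 1 single-colour Agilent array, and the 6 arrays lay on 1 slide with knockout mice in array row 2 and wild-type mice in array row 1, so that row and genotype cannot be told apart. A knockout and a wild-type mouse shared each of the 3 array columns.

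Levels are log2 signal relative to the 75th percentile of the same array, a scale on which 1 unit is a doubling of signal. That percentile was 1369.6, 1032.3 and 2664.2 units of processed signal in knockout replicates 1 to 3, against 1526.0, 1438.1 and 763.9 in wild-type replicates 1 to 3. Levels of different probes cannot be set against each other, because each probe has its own brightness. A probe was read as detected where the scanner software called it well above background. All 17 measured markers of red pulp macrophages, such as Spic, Vcam1 and Slc40a1, were detected on at least 3 of 6 arrays. The brighter Bach2 probe read -2.24, -3.72 and -1.15 in knockout mice, against -0.90, 0.02 and -1.35 in wild-type mice, so the genotypes overlapped. Where this probe lies with respect to the deletion is not given in the sources used here, so it does not check the labels. In whole sorted populations, fewer cells of a type and less RNA per cell cannot be told apart.

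Extracellular ATP and other nucleotides leak from damaged cells and are released by stressed ones. P2X receptors are ion channels opened by ATP. P2Y receptors are G protein-coupled receptors, each with a preference for ATP, ADP, UDP or UDP-glucose. In macrophages such receptors are known for steering chemotaxis and phagocytosis and, in the case of P2rx7, for activating the NLRP3 inflammasome.

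Promoter sequences were read because Bach2 binds elements built around an AP-1-type core. RefSeq promoters of assembly GRCm38.p6, from 250 bases before to 50 bases after a start site, were at hand for 7 of the 9 genes in 12 windows, and P2rx5 and P2ry6 had no entry. The core was searched as TGANTCA, which reads the same on both strands. It occurred in 4 of the 12 windows, those of P2rx7, P2ry10 and P2ry14, against 7.81% of all 32851 windows of this length. A gene can have several windows, some of them overlapping, so the windows are not independent. Counted by gene, 8.97% of all genes had the core. The matches in P2ry10 and in a further P2ry14 window read TGAATCA. The longer form TGANTCAGC, searched on both strands and containing the core, occurred in 0 of the 12 and in 1.19% of all. The windows of P2rx7 (chr5:122643677-122643976, plus strand) and of P2ry14 (chr3:59153443-59153742, minus strand) are shown 5′ to 3′ because their cores carry C or G at the N, with the core in capitals.
P2rx7: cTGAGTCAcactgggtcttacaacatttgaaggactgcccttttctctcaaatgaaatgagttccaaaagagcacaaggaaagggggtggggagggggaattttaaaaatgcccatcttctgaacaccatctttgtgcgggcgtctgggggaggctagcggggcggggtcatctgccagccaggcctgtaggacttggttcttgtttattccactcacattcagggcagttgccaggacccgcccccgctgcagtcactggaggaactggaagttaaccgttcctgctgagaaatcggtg
P2ry14: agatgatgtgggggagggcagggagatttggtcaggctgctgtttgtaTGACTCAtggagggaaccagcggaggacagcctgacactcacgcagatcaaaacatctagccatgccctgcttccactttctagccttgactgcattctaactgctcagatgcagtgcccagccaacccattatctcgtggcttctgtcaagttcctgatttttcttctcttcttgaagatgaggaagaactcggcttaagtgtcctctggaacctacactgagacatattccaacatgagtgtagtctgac
The first base of the core lies at -249 relative to the start site in P2rx7 and at -202 in P2ry14. A match of letters is a description of the window and does not show that a factor binds there.

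Most of the receptors were detected in every mouse, and 1 gene was not. P2rx1, P2rx4, P2rx7, P2ry6, P2ry10, P2ry12, P2ry13 and P2ry14, 8 genes with 10 probes, were detected on all 6 arrays. P2rx5 was detected on 3 of 3 knockout and on 0 of 3 wild-type arrays. It was also the only member probe of the 11 whose genotypes did not overlap. Among all 55547 probes with a value on every array, 0.684% did not overlap with the knockout mice higher and 1.85% with the knockout mice lower. Detection on every knockout and on no wild-type array was met by 21 probes, 0.0378% of them. The members were proposed with this contrast in view, so nothing is read from these shares.

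**Figure D1:**
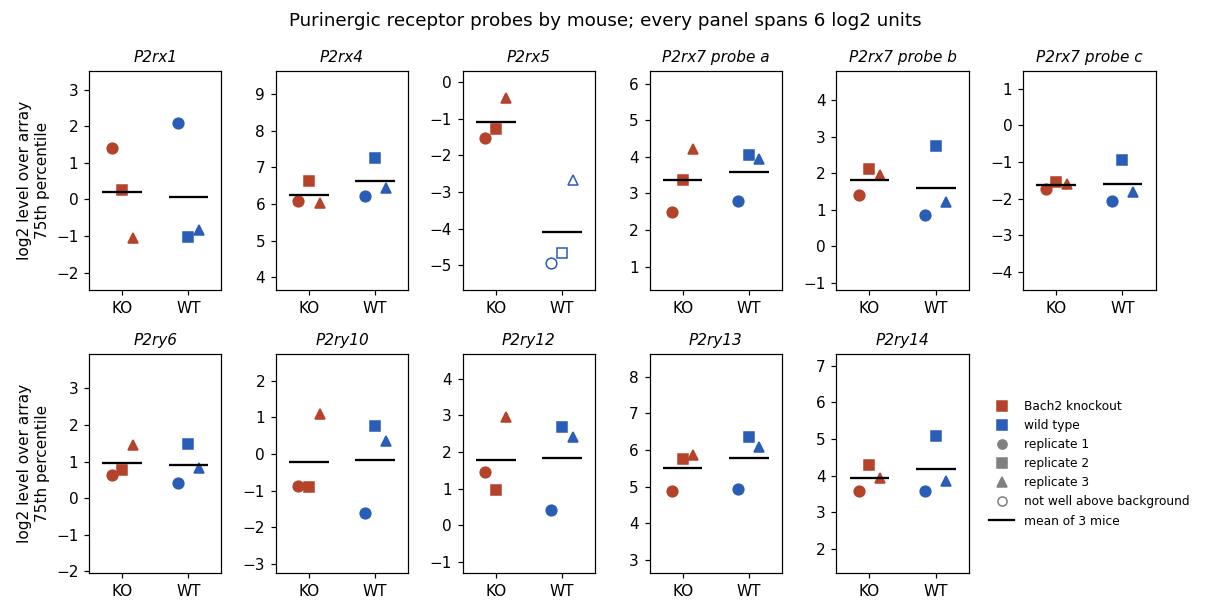
Log2 level relative to the array's 75th percentile for each of the 11 receptor probes, with 1 point per mouse, shape by replicate, knockout left of wild type, and a line at the mean of 3 mice. All panels span 6 log2 units on their own level. In the P2rx5 panel the knockout points lie between -1.52 and -0.43 and the open wild-type points, not well above background, between -4.94 and -2.68, whereas the genotypes overlap in the other 10 panels.

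P2rx5 encodes a subunit of the ATP-gated P2X channels. Its processed signal was 479.1, 428.4 and 1972 units in knockout replicates 1 to 3, against 49.73, 56.61 and 119.2 units in wild-type replicates 1 to 3. On the scaled log2 level this was -1.52, -1.27 and -0.43 in knockout mice and -4.94, -4.67 and -2.68 in wild-type mice. Every knockout mouse lay above every wild-type mouse, and the gap between the lowest knockout and the highest wild-type level was 1.16. The means were -1.07 ± 0.57 in knockout and -4.10 ± 1.23 in wild type (SD, n = 3 each), a log2 difference of 3.02 ± 0.75 (SE from limma).

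Because no wild-type array had the P2rx5 probe well above background, that difference is not a measured ratio. Set against the lowest level that counted as detected on each wild-type array, P2rx5 was 4.14-fold higher in knockout. That level is not a strict limit, because an undetected probe can lie above it. Gp6, detected on no array, read -2.45 in wild-type replicate 1, where the lowest detected level was -2.83. The 4.14-fold value leans on wild-type replicate 2, the array with the lowest such level. It was 2.70-fold without that array and between 3.32-fold and 5.74-fold as each other mouse was left out, values computed after the data were seen. Within array columns 1, 2 and 3 its log2 difference was 3.42, 3.40 and 2.25. The smallest of these came from column 3, which held wild-type replicate 3, the array with the lowest 75th percentile, and knockout replicate 3, the array with the highest. The mean levels of the T cell and NK marker lists were also higher in every knockout mouse than in any wild-type mouse, and their part in the P2rx5 difference was not tested. Leaving out each mouse in turn kept the fitted difference between 2.60 and 3.73. None of the wild-type values was well above background, so no order is read among them. The only Haspin probe represents the neighbouring gene of P2rx5 in the reference table, a histone kinase gene, and it overlapped between the genotypes, with 2.38, 0.93 and 1.74 in knockout and 2.72, 0.56 and 0.23 in wild type.

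The gene next to or overlapping a P2X member was read likewise: Atp2a3 by P2rx1 and Camkk2 by P2rx4 were detected on all 6 arrays and differed by 0.18 ± 0.69 and -0.16 ± 0.65 (SE).

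P2rx4 encodes an ATP-gated channel of endosomes, lysosomes and the plasma membrane in macrophages and microglia. It read 6.07, 6.63 and 6.04 in knockout mice, against 6.23, 7.25 and 6.45 in wild-type mice. The highest value belonged to wild-type replicate 2 and the lowest to knockout replicate 3, with the other mice interleaved. The log2 difference was -0.40 ± 0.63 (SE), and it was below 0 within all 3 array columns, at -0.16, -0.62 and -0.41. This was the most negative difference among the 11 member probes. It was smaller than its SE, which limma pulls toward a variance common to all fitted probes. The SD between mice was 0.33 in knockout and 0.54 in wild type.

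P2rx7, the channel that needs high ATP to open and that triggers the NLRP3 inflammasome and the shedding of surface proteins, was covered by 3 probes designed on different transcripts. The probe on NM_011027, called probe a here, read 2.50, 3.38 and 4.21 in knockout mice and 2.78, 4.05 and 3.94 in wild-type mice. The probe on NM_001038887, probe b, read 1.40, 2.13 and 1.95 in knockout and 0.86, 2.75 and 1.21 in wild type. The probe on NM_001038845, probe c, read -1.74, -1.55 and -1.61 in knockout and -2.06, -0.95 and -1.82 in wild type. The genotypes overlapped on all 3 probes.

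The 3 P2rx7 probes did not share a direction. Their log2 differences were -0.23 ± 0.70 for probe a, 0.22 ± 0.69 for probe b and -0.02 ± 0.63 for probe c (SE). In array column 2 the knockout mouse was lower on each of them, by -0.67, -0.62 and -0.60, and in column 3 it was higher on each, by 0.27, 0.74 and 0.21. Probes b and c had the same order of mice at the top, with wild-type replicate 2 highest, while knockout replicate 3 was highest on probe a. Which transcripts each probe detects beyond the one it was designed on is not given in the sources used here.

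P2rx1, an ATP-gated channel best known from platelets, varied more between mice than any other of these 10 probes. It read 1.40, 0.25 and -1.06 in knockout mice and 2.10, -1.02 and -0.84 in wild-type mice, a range of 3.16 log2 units. The replicate 1 mice, which lay in array column 1, were the highest of both genotypes. The means were 0.20 ± 1.23 in knockout and 0.08 ± 1.75 in wild type (SD, n = 3 each). The difference of 0.12 ± 0.92 (SE) had opposite signs in different array columns, at -0.70, 1.26 and -0.22, and it lay between -0.49 and 1.13 as each mouse was left out.

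Platelet markers were present and were read beside P2rx1. Of 12 platelet markers, 7 were detected on at least 3 arrays, 6 of them with a knockout minus wild type difference below 0, and Itga2b and Gp6 were not detected on any array. Their summed level, in units of each array's 75th percentile, ranged from 58.4 to 95.3 in knockout mice and from 53.9 to 168 in wild-type mice. Such a sum, here and for the lists below, mostly follows the brightest probes of a list and does not measure the amount of a cell type. Centred on the 6 arrays, the platelet list read -0.70, 0.75 and -1.27 in knockout and 0.67, 1.52 and -0.96 in wild type. Knockout replicate 2 and wild-type replicate 1 lay above the mean of the 6 mice for both P2rx1 and the platelet list, and knockout replicate 3 and wild-type replicate 3 lay below it for both. Knockout replicate 1 and wild-type replicate 2 lay on opposite sides for the gene and the list. Among the platelet markers, Gp9 and Pf4 were detected on all 6 arrays. The part of platelets in the P2rx1 level was not tested.

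P2ry6, the receptor for UDP, which is known for promoting phagocytosis in microglia, was the only member with repeated spots. The SD of its 10 spots on an array lay between 0.065 and 0.086, against an SD between mice of 0.44 in knockout and 0.53 in wild type. Its levels were 0.62, 0.78 and 1.46 in knockout mice and 0.41, 1.47 and 0.83 in wild-type mice. The groups overlapped fully, and the difference was 0.05 ± 0.64 (SE). The spread between mice was several times the spread between spots of the same RNA.

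The neighbour of P2ry6 on chromosome 7 is P2ry2, a receptor for ATP and UTP. It read -2.31, -0.57 and -0.55 in knockout and -2.13, -0.78 and -0.59 in wild type. Replicate 1 was the lowest mouse of both genotypes for P2ry2, and likewise for P2ry6.

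P2ry12, P2ry13 and P2ry14 lie side by side on chromosome 3, within the span of Med12l, a gene of a Mediator subunit that was added to the named genes for its position. P2ry12, an ADP receptor of platelets and microglia, read 1.45, 0.97 and 2.95 in knockout mice and 0.41, 2.68 and 2.40 in wild-type mice. P2ry13, an ADP receptor of myeloid cells, read 4.89, 5.76 and 5.85 in knockout and 4.94, 6.36 and 6.08 in wild type. P2ry14, which responds to UDP-glucose, read 3.57, 4.28 and 3.94 in knockout and 3.59, 5.08 and 3.84 in wild type. Each of these receptors overlapped between the genotypes.

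The log2 differences of the chromosome 3 receptors were -0.04 ± 0.80 for P2ry12, -0.29 ± 0.67 for P2ry13 and -0.24 ± 0.66 for P2ry14 (SE). P2ry12 differed by 1.04, -1.71 and 0.55 within array columns 1, 2 and 3, so its near-zero mean hides large differences of opposite sign between paired positions on the slide. P2ry13 differed by -0.05, -0.60 and -0.23, below 0 in each column, and P2ry14 by -0.02, -0.80 and 0.10. Med12l was detected on 0 of 6 arrays although the 3 receptor genes inside its span were detected on all 6. Gpr171, an orphan receptor gene next to P2ry14, was detected on all 6 arrays and read 0.20, 0.86 and 1.01 in knockout and -0.28, 1.33 and 0.21 in wild type. Igsf10, on the other side of P2ry12, was detected on 1 of 6 arrays.

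P2ry10, on the X chromosome, encodes a lymphocyte receptor for which lysophosphatidylserine has been described as ligand. It read -0.87, -0.90 and 1.09 in knockout mice and -1.62, 0.76 and 0.36 in wild-type mice. Knockout replicate 3 was highest and wild-type replicate 1 lowest, and the difference was -0.06 ± 0.82 (SE). It lay between -0.785 and 0.404 as each mouse was left out and was above 0 without knockout replicate 1 or 2 or wild-type replicate 2 or 3, the last of which was the female mouse. Its neighbour P2ry10b, detected on all 6 arrays with its brighter probe, read 0.74, 1.42 and 2.59 in knockout and 0.77, 1.85 and 1.80 in wild type, again with knockout replicate 3 highest.

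B cell markers were read beside P2ry10. All 13 were detected on at least 3 arrays, Cd79b among them, and 7 had a difference above 0. The centred B cell list read -0.34, -0.08 and 0.40 in knockout and -0.88, 0.20 and 0.72 in wild type, and its summed level ranged from 132 to 176 in knockout and from 93.8 to 204 in wild type. Wild-type replicate 1 was lowest for both P2ry10 and the B cell list, while the highest was knockout replicate 3 for P2ry10 and wild-type replicate 3 for the list. The part of B cells in the P2ry10 level was not tested.

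**Figure D2:**
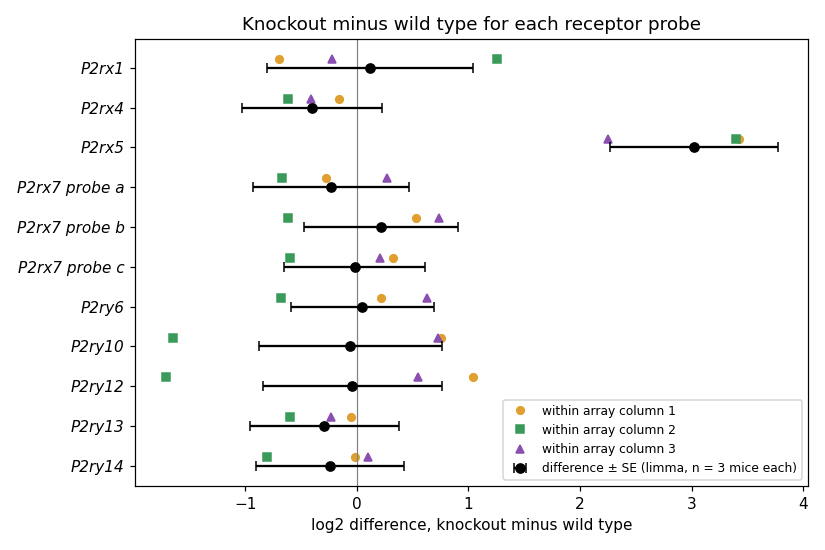
Log2 difference, knockout minus wild type, for each receptor probe (black point ± SE from limma, n = 3 mice each), with the differences within array columns 1, 2 and 3 as coloured symbols. P2rx5 lies at 3.02 with all columns above 2, and the other 10 probes lie between -0.40 and 0.22.

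Taking the 10 probes other than P2rx5 side by side, 3 had a difference above 0 and 7 below 0, from -0.40 to 0.22, with SE from 0.63 to 0.92. The median over all 11 member probes was -0.04, beside a median of 0.10 over all 55547 probes and of -0.11 over the 23032 probes detected on at least 3 arrays. Limma called 0.0% of the 55547 probes at an adjusted p under 0.05, and 526 of them had an unadjusted p under 0.05. That is fewer than the share of 0.05 expected if no probe differed. The absence of calls therefore does not show that the genotypes are alike. All 10 of these differences were smaller than their SE from limma, which is pulled toward a variance common to all fitted probes.

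Single mice stood out across several of these receptors. Over the 6 arrays a probe other than P2rx5 ranged over 1.06 to 3.16 log2 units. Wild-type replicate 2 was the highest mouse for P2rx4, P2ry6, P2ry13, P2ry14 and probes b and c of P2rx7, and knockout replicate 3 was the highest for P2ry10, P2ry12 and probe a of P2rx7. Wild-type replicate 1 was lowest for P2ry6, P2ry10, P2ry12 and probes b and c of P2rx7, and it was highest for P2rx1. Knockout replicate 1, its neighbour in array column 1, was below the mean of the 6 arrays on every member probe except those of P2rx1 and P2rx5. Whether this goes with the slide or with the mice was not tested.

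**Figure D3:**
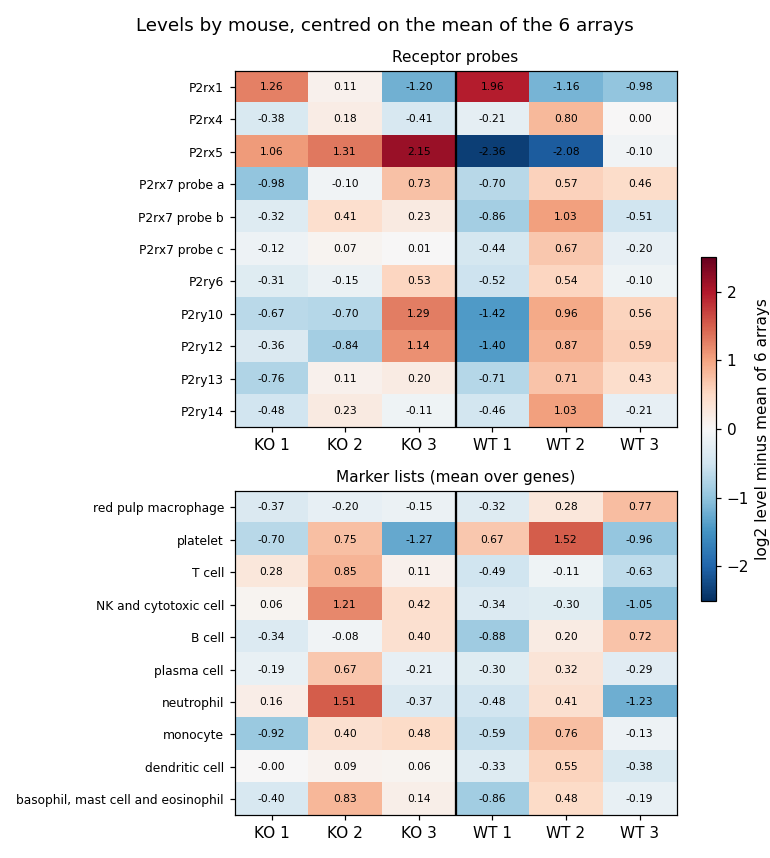
Levels of the 11 receptor probes (upper part) and of 10 marker lists (lower part, mean over the detected genes of a list) in each mouse, as log2 level minus the mean of the 6 arrays, with knockout mice on the left. P2rx5 is above 0 in every knockout mouse and below 0 in every wild-type mouse, and the T cell and NK lists are likewise above 0 in every knockout mouse and below 0 in every wild-type mouse.

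The centred lists of T cells and of NK and cytotoxic cells were split by genotype, as P2rx5 was, but did not follow its order among the knockout mice. In the T cell list 14 of 16 detected markers had a difference above 0, and Cd247 and Ctla4 were not detected on any array. The centred list read 0.28, 0.85 and 0.11 in knockout mice and -0.49, -0.11 and -0.63 in wild-type mice, while its summed level ranged from 69.9 to 144 in knockout and from 48.3 to 89.9 in wild type. In the NK and cytotoxic list 11 of 11 markers had a difference above 0 and none was undetected. That list read 0.06, 1.21 and 0.42 in knockout and -0.34, -0.30 and -1.05 in wild type, with summed levels from 105 to 366 in knockout and from 38.5 to 69.4 in wild type.

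Knockout replicate 2 was highest for both lymphocyte lists and P2rx5 was highest in knockout replicate 3. Red pulp macrophage markers had 17 of 17 differences below 0, with a summed level of 1520 to 1900 in knockout against 1620 to 3390 in wild type. Their median difference was -0.45, beside -0.11 over all probes detected on at least 3 arrays. The centred list read -0.37, -0.20 and -0.15 in knockout and -0.32, 0.28 and 0.77 in wild type. Wild-type replicate 1 lay below knockout replicates 2 and 3, so the genotypes overlapped. Neutrophil markers had 9 of 11 above 0, with summed levels from 211 to 583 in knockout and from 191 to 450 in wild type. For plasma cells 7 of 12 markers lay above 0, for dendritic cells 5 of 10, for monocytes 5 of 9 and for basophils, mast cells and eosinophils 3 of 6, with Ms4a2 and Epx undetected. The part of any of these cells in the P2rx5 difference was not tested.

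The genes whose levels most resembled those of P2rx5 were sought among 11020 autosomal named genes detected on at least 3 arrays. Likeness was the mean absolute difference of the levels, each centred on the 6 arrays. The closest were Gpat3, Dusp11, Gata3, Abcb1b and Aldh1a2, at 0.667 to 0.773 log2 units. The wild-type values of P2rx5 that enter these distances were not well above background, so no order is read among the 5 genes. Gpat3, an enzyme of triglyceride synthesis, read 0.94, -0.18 and 0.31 in knockout and -3.21, -1.92 and -1.58 in wild type. All 5 were higher in every knockout mouse than in any wild-type mouse, as P2rx5 was known to be. They were picked for likeness to P2rx5, so nothing is read from this split. Each was detected on 3 of 3 knockout arrays. Of the 3 wild-type arrays, Aldh1a2 was detected on 0, Dusp11 and Gata3 on 1, Gpat3 on 2 and Abcb1b on 3. Gata3 and Aldh1a2 were highest in knockout replicate 3, as P2rx5 was, and Gpat3, Dusp11 and Abcb1b in knockout replicate 1.

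Probe a of P2rx7 was compared in the same way. Nab2, a corepressor of EGR factors, lay at 0.056 log2 units from it, Nub1 at 0.064, Arhgap30 at 0.081, Cpped1 at 0.085 and Shfl at 0.093. Nab2 read -0.27, 0.64 and 1.44 in knockout mice and -0.02, 1.08 and 1.18 in wild-type mice. All 5 overlapped between the genotypes, as P2rx7 did, and they were likewise picked for likeness. No test was attached to these ranks.

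Other genes of nucleotide signalling were read in 6 lists with 54 genes, of which 40 were detected on at least 3 arrays. By limma with adjustment over all 55547 probes, 0 genes were higher and 0 lower in knockout, each with an adjusted p of 1, and 1 gene had an unadjusted p under 0.05. Of the 40 detected genes, 15 had a difference above 0 and 25 below, with a median of -0.11. Lists were described by their counts, and no list was tested as a whole.

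Among the remaining P2 receptors, 4 of 7 were detected on at least 3 arrays. P2ry4, a receptor for UTP, was the gene with an unadjusted p under 0.05. It read 2.39, -1.58 and -0.09 in knockout and -0.78, -2.30 and -3.06 in wild type, a log2 difference of 2.29 ± 0.97 (SE, limma adjusted p = 1). Knockout replicate 1 was far above the rest, and knockout replicate 2 lay below wild-type replicate 1, so the genotypes overlapped. P2rx3 differed by -1.06 ± 0.65 (SE) on its brighter probe, detected on 1 knockout and 2 wild-type arrays. Its other probe, detected on 1 array, differed by -0.28, so the size of the P2rx3 difference is not settled. P2ry10b differed by 0.11 ± 0.70 (SE), and the other probe of P2ry10b had the opposite sign.

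The receptors for adenosine, into which extracellular ATP is broken down, had 3 of 4 members detected on at least 3 arrays. Adora2a, the receptor that raises cAMP and restrains T cells, read -1.54, -0.27 and -1.06 in knockout mice and -1.94, -2.39 and -2.59 in wild-type mice. Every knockout mouse lay above every wild-type mouse, and the difference was 1.35 ± 0.64 (SE, limma adjusted p = 1). It was detected on 3 of 3 knockout and 2 of 3 wild-type arrays. Adora2b differed by -0.52 ± 0.62 (SE) on its brighter probe, detected on 1 knockout and 3 wild-type arrays. Its other probe, detected on 5 arrays, differed by 1.92, so the direction of Adora2b is not settled. Adora3 differed by -0.31 ± 0.72 (SE).

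Of 15 genes of nucleotide breakdown and adenosine handling, 10 were detected on at least 3 arrays, and Nt5e, the ectonucleotidase CD73, was not detected on any. Art2b, a T cell ecto-ADP-ribosyltransferase known in mouse for activating P2RX7, read -1.85, -1.19 and -2.93 in knockout and -3.03, -3.10 and -4.05 in wild type. Knockout replicate 3 lay just above wild-type replicate 1, so that the groups were separate by a narrow margin, and the difference was 1.40 ± 0.69 (SE, limma adjusted p = 1). Art2b was detected on 3 of 3 knockout and 1 of 3 wild-type arrays. Alpl differed by 0.60 ± 0.65 and Bst1 by -0.61 ± 0.87 (SE). Both Adora2a and Art2b are expressed by T cells, whose marker list is given with P2rx5, and the part of those cells in the values was not tested.

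Genes that release ATP or act after P2rx7 were mostly detected. Of the 6 detected genes of ATP release, Panx1, the pannexin channel, differed by -0.71 ± 0.65, Calhm6 by 0.40 ± 0.62 and Calhm2 by 0.31 ± 0.66 (SE). Of the 8 detected genes of the P2X7 inflammasome arm, 7 lay below 0 and 1 above. Their median was -0.26, beside -0.11 over all probes detected on at least 3 arrays. Kcnk6, the potassium channel TWIK2, lay at -0.44 ± 0.65, Il18 at -0.26 ± 0.63 and Il1b at -0.30 ± 0.74 (SE), each smaller than its SE. Nlrp3 itself was detected on 1 of 6 arrays. Of the 9 detected signalling genes downstream of P2Y receptors, 4 lay above 0 and 5 below, with the inhibitory G protein gene Gnai2 at -0.41 ± 0.61, Arrb2 at -0.32 ± 0.64 and Plcb3 at 0.27 ± 0.69 (SE).

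**Figure D4:**
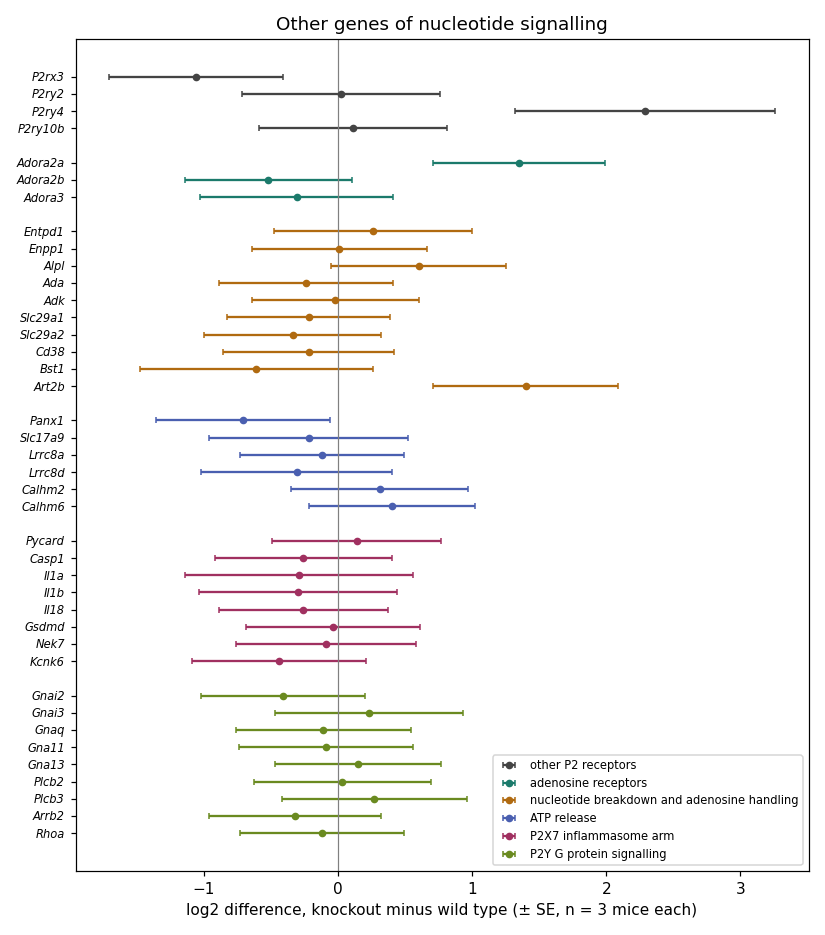
Log2 difference, knockout minus wild type, ± SE from limma (n = 3 mice each) for the 40 genes of the 6 nucleotide signalling lists that were well above background on at least 3 of 6 arrays, coloured by list. Each gene is shown by its brightest probe only. P2ry4, Art2b and Adora2a lie farthest to the right, at 2.29, 1.40 and 1.35. P2rx3, detected on 1 knockout and 2 wild-type arrays, lies farthest to the left, at -1.06.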

How the data were processed

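Per the file headers, the authors read spot intensity values with Agilent Feature Extraction 10.7.3.1 (9.1 per the submitters' processing notes), and the processed intensity column of that software is background subtracted within each array and not scaled between arrays. The authors' deposited table of log2 values for 279 probes, centred per probe as its values show, holds 0 member probes and was not used for the members. Per the labels' protocols, RNA was amplified and then labelled with a cyanine dye.

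Non-uniform spots and population outliers by the scanner flags were dropped, 0 spots were saturated, and the remaining spots of each probe were averaged after log2. Each array's 75th percentile over non-control probes was subtracted. The share of spots well above background ranged over the arrays from 37.5% to 51.5%. A probe counted as detected where at least a share of 0.5 of its spots were. Accessions were named without version through the RefSeq gene table of GRCm38.p6, which named 26413 probes. The array design refers to the older mm9 assembly, so the table served only for names and neighbours.

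All 55547 probes with 6 values were fitted with lmFit and eBayes of limma 3.58.1 (R 4.3.3), knockout against wild type without covariates, with Benjamini-Hochberg adjustment over all probes. The fit was also run on simulated levels with planted changes and independent noise, to check its estimates. That run does not show how calling performs on these arrays. Genes outside the members were read from the brightest of their probes, by mean level. The number of arrays, 3 per genotype, limits the precision. The replicates are separate mice, numbered 1 to 3 in the order of the records.

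Members, gene lists and marker lists were chosen with earlier results of these data known. Named genes were every member, up to 3 genes per signalling list with the smallest p among those detected on at least 3 arrays, up to 4 markers per list and undetected markers, the nearest neighbours of members, and the 5 genes closest in level to P2rx5 and to P2rx7. Neighbours without a named probe are left out, and Med12l was added after its position was seen. Alternatives were the array median, another percentile, quantile normalization, normexp background correction (offset 50) on the median spot signal because the files hold no mean signal, a filter on dim probes, a variance trend, array column as a block, keeping flagged spots, and leaving out mice.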

Additional observations from a re-analysis of the deposited data

How the results depend on the processing

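The P2rx5 difference stayed above 0 in all 15 alternatives, from 1.98 with normexp background correction to 3.73 without wild-type replicate 3, and its genotypes did not overlap under any of the 5 alternative scalings or treatments of flagged spots. Normexp also narrowed the gap between the genotypes to 0.57. The 4.14-fold value of P2rx5 over the lowest detected level became 2.70-fold without wild-type replicate 2 and up to 5.74-fold without another mouse. It was 3.52-fold with normexp, and these alternatives were chosen after seeing the data. P2rx4 stayed below 0 in all 15. The other 9 member probes each changed sign in 1 to 7 of the 15 alternatives, P2ry12 most often. No shift among them was as large as the SD between mice of that probe, pooled over the genotypes. The median over member probes was between -0.325 without both mice tagged P6 and 0.094 with the array median, and between -0.531 and 0.307 as each mouse was left out. The array median moved the median of all probes to 0.23, against 0.10 for the main scaling. The number of probes called by limma, 0 higher and 0 lower, became 1 higher and 2 lower with normexp and also with a variance trend, the same 3 probes, none with a gene name here, and it was 0 in the other 13 alternatives. No gene of the signalling lists was called in any of the 15. No paired analysis was possible because the labels share a tag between the genotypes for 1 pair of mice only, and array column as a block called 0 probes. The authors' deposited table could not be used as an alternative since it holds none of these probes. Low signal limits the P2rx5 values of wild-type mice, none of which was well above background, so its ratio between the genotypes was not measured.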
